A study of Rattus norvegicus with 4 samples.

Results

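Ccl2, Ccl7, Ccl11 and Ccl6 encode secreted CC chemokines that attract monocytes and eosinophils, and their transcripts were followed through the cells of healing rat skin. The rows were taken by gene symbol from a list of 5 names that also held Ccr2, the receptor of Ccl2 and Ccl7. A row with the symbol was found for 4 of the 5, of 23999 genes in all, and Ccr2 is not analysed here. The rows are ENSRNOG00000007159 for Ccl2, ENSRNOG00000000239 for Ccl7, ENSRNOG00000007335 for Ccl11 and ENSRNOG00000030021 for Ccl6.

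The skin came from a rat model of wound healing, was collected at day 4 and was read by droplet single-cell RNA sequencing in 4 libraries. In the injected group, 2 libraries came from wounds that received purified migrasomes, large vesicles shed from the trailing fibres of moving cells. In the uninjected group, 2 libraries came from wounds that received nothing. An injection as such and the migrasomes in it cannot be told apart in this design, and the labels do not say that replicates were separate animals, so p-values measure the spread between these libraries. The sources used here name neither the strain and age of the rats nor the cells that made the migrasomes.

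The injected libraries held 98444851 and 75823418 unique molecular identifiers (UMIs, each a counted transcript molecule) and kept 9833 and 6035 cells. The uninjected libraries held 82112943 and 105605297 UMIs and kept 9084 and 8711 cells. Uninjected 1 stood apart in that genes of ribosomal proteins took 17.05% of its UMIs, against 7.15% and 8.60% in the injected libraries and 8.61% in uninjected 2. Between 14 and 28 cell barcodes were shared by a pair of libraries, at most 0.348% of the smaller one. Cells were grouped into 10 classes from 24 clusters by marker genes that included none of the chemokines, and a class is called X-like. The 6 classes with at least 50 cells in every library were tested, though macrophage-like cells numbered only 61 in uninjected 1, against 693 and 385 in the injected libraries and 419 in uninjected 2.

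CC chemokines are small secreted proteins with a pair of adjacent cysteines that act through G protein-coupled receptors on leukocytes. Ccl2 acts on Ccr2 and draws monocytes out of the blood into inflamed tissue, where they become macrophages. Ccl7 acts on Ccr2 and on other receptors, and Ccl11 (eotaxin) acts on Ccr3 of eosinophils. Ccl6 is known from mice as a product of myeloid cells. In skin wounds these ligands are part of the early inflammatory phase, and interleukin 1, tumour necrosis factor and NF-kB signalling are known inducers of Ccl2 and Ccl7.

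In the RefSeq annotation of the rat assembly GRCr8, Ccl2, Ccl7 and Ccl11 follow each other on chromosome 10, with Ccl12 next, and Ccl6 lies elsewhere on that chromosome between Ccl9 and Ccl3. The RefSeq promoter windows of Ccl7 and Ccl6 are shown because the levels of these genes were ordered differently over the cell classes, with Ccl6 highest and Ccl7 low in neutrophil-like cells. Each window runs from 250 bases before to 50 bases after the gene start, 5′ to 3′ along the gene. The Ccl7 window is chr10:67513845-67514144 on the plus strand and the Ccl6 window is chr10:68883317-68883616 on the minus strand. Capitals mark matches, on either strand, to the TATA box (TATAAA), the AP-1 motif (TGANTCA), the Ets core (AGGAAG) and the NF-kB motif.
Ccl7: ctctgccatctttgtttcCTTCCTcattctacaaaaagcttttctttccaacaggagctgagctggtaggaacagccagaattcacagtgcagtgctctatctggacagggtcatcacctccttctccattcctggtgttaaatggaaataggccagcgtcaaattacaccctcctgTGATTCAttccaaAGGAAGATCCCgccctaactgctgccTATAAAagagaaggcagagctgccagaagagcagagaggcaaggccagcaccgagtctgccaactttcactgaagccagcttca
Ccl6: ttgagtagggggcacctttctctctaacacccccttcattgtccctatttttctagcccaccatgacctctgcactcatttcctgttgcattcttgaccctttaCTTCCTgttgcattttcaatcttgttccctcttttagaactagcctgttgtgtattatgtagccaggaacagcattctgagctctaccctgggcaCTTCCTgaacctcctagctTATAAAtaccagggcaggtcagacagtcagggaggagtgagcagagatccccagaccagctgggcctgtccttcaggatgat
The Ccl7 window held 5 matches. They were a TATA box starting 34 bases before the gene start, an AP-1 match starting at 73, an NF-kB match starting at 59, and Ets cores starting at 232 and 60, the last of which overlaps the NF-kB match. The Ccl6 window held 3 matches, a TATA box starting 32 bases before the gene start and Ets cores starting at 146 and 51. Of 33469 RefSeq promoter windows of this length, 14.2% held the TATA box, 7.33% the AP-1 motif, 34.5% the Ets core and 7.51% the NF-kB motif. A match is a description of the letters.

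Ccl2 was found in nearly every kind of cell of the wound, Ccl7 mostly in mast-like, macrophage-like, stromal and some keratinocyte-like cells, Ccl11 in fibroblast-like cells and Ccl6 in neutrophil-like cells. Levels are CPM, the UMIs of a gene scaled to the total UMIs of its class, without further scaling where all classes are set side by side. Over the 4 libraries, Ccl2 averaged 22153 ± 10513 CPM (SD, n = 4) in mast-like cells and 18030 ± 3141 in neutrophil-like cells, and the ranges of these classes overlapped. Next came endothelial-like cells at 7342 ± 3053, fibroblast-like cells at 6472 ± 1578 and macrophage-like cells at 5756 ± 3089, whose ranges also overlapped. Mural-like cells at 3369 ± 2200, keratinocyte-like cells at 2930 ± 886 and dendritic-like cells at 1883 ± 694 were lower on average and overlapped. Mural-like and keratinocyte-like cells reached 6028 and 4083 CPM, above the lowest macrophage-like library at 2971. The lowest mural-like library, with 6 cells, stood at 641, below the highest skeletal muscle-like library at 905. Skeletal muscle-like cells at 288 ± 413 and T and NK-like cells at 199.8 ± 118 were lowest.

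The order was different for the other chemokines. Ccl7 averaged 2726 ± 1769 CPM in mast-like, 1347 ± 751 in macrophage-like, 983 ± 533 in fibroblast-like and 773 ± 646 in endothelial-like cells (SD, n = 4), with overlapping ranges. It stood at 176 ± 55.2 CPM in keratinocyte-like cells, 169 ± 209 in mural-like, 52.9 ± 33.0 in dendritic-like and 33.7 ± 10.9 in neutrophil-like cells. Skeletal muscle-like cells at 13.7 ± 16.5 and T and NK-like cells at 7.17 ± 2.80 were lowest for Ccl7. Ccl6 averaged 1084 ± 260 CPM in neutrophil-like cells, and its lowest library there, 725 CPM, was above the highest in macrophage-like cells, 162 CPM. In dendritic-like cells Ccl6 averaged 14.1 ± 3.60 CPM, and in the remaining classes 7.64 or less.

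**Figure D1:**
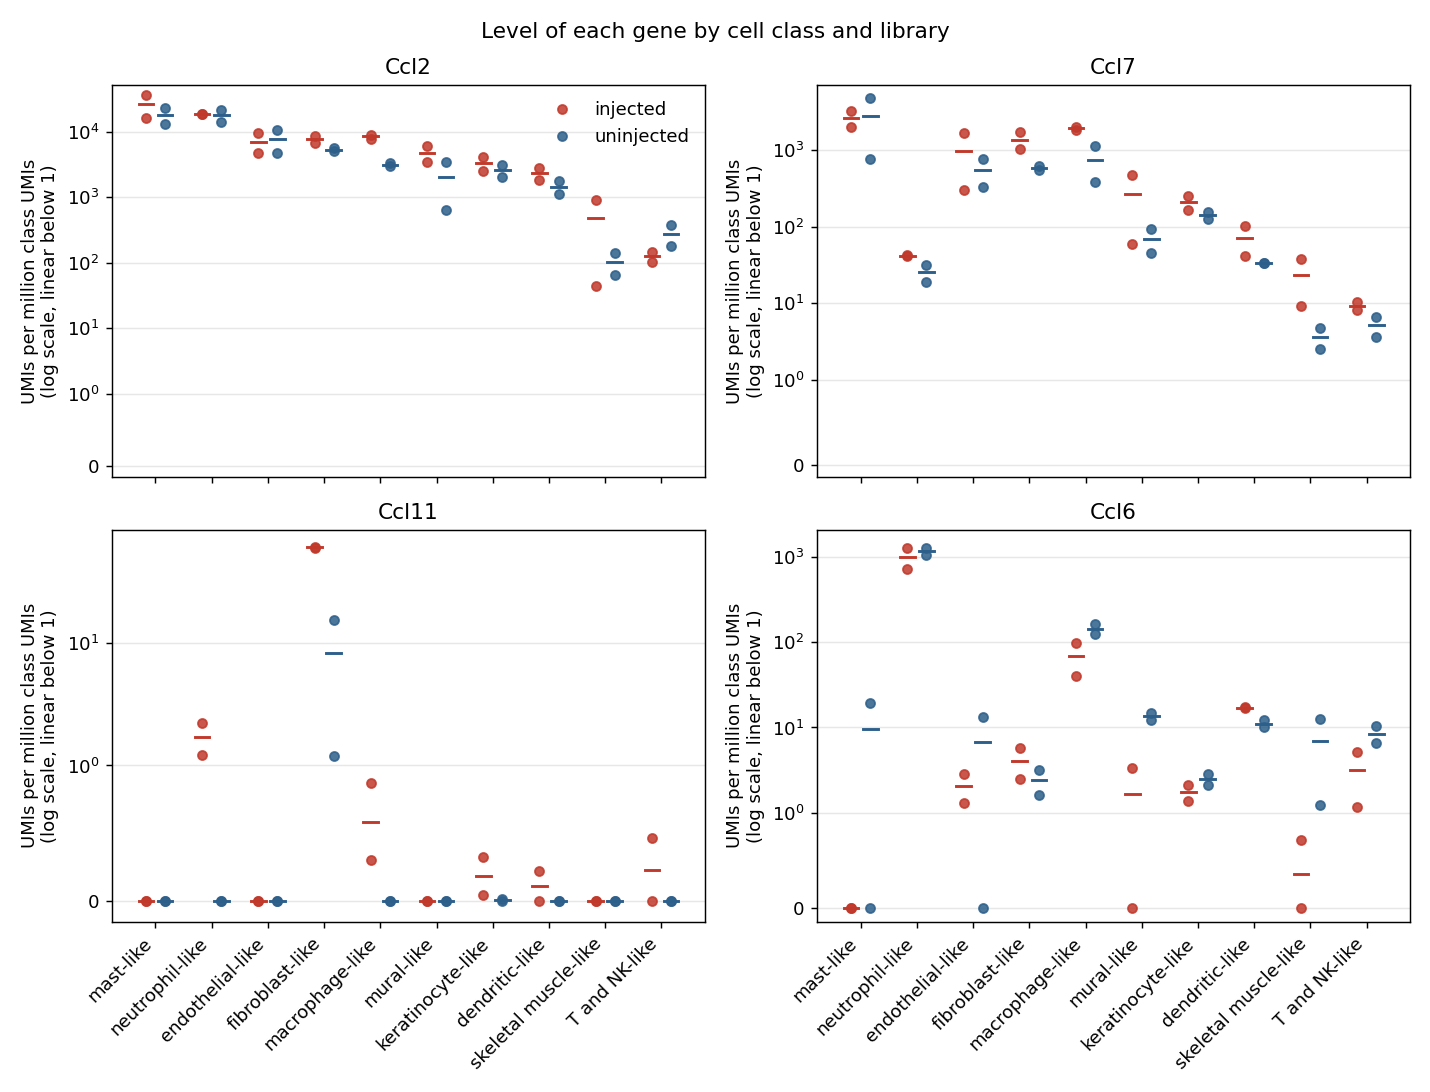
Level of Ccl2, Ccl7, Ccl11 and Ccl6 in 10 cell classes. The vertical axis is CPM of the class on a log scale that is linear below 1, each point is a library, short lines are group means, and injected (red) stands left of uninjected (blue). Ccl11 reached 60.3 and 60.7 CPM in injected fibroblast-like cells and stayed below 3 in every other class.

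Because the classes differ in size and RNA content, the share of a gene's UMIs that a class held is another view. Fibroblast-like cells held 28.1% and 37.0% of the Ccl2 UMIs of the injected libraries, against 12.9% and 28.2% in the uninjected libraries. Keratinocyte-like cells held 35.2% and 37.4% of them in the injected libraries, against 58.3% and 32.4% in the uninjected libraries. Neutrophil-like cells held 23.0% and 14.1% in the injected libraries, against 25.2% and 32.7% in the uninjected libraries. The groups overlapped in fibroblast-like and keratinocyte-like cells, and the neutrophil-like share was below the uninjected values in both injected libraries. Macrophage-like cells held 6.30% and 6.16% of Ccl2 UMIs in the injected libraries, against 0.235% and 1.97% in the uninjected libraries. These shares count cells as well as RNA per cell, and macrophage-like cells were fewest in uninjected 1.

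Ccl7 UMIs came mainly from fibroblast-like and keratinocyte-like cells. Fibroblast-like cells held 52.3% and 61.8% of them in the injected libraries, against 32.8% and 48.4% in the uninjected libraries. Keratinocyte-like cells held 26.3% and 20.7% in the injected libraries, against 59.5% and 35.1% in the uninjected libraries, and were the larger source in uninjected 1. Ccl11 came almost wholly from fibroblast-like cells, with 98.99% and 97.3% in the injected libraries, against 99.03% and 100% in the uninjected libraries. Neutrophil-like cells held 92.4% and 87.3% of Ccl6 UMIs in the injected libraries, against 95.8% and 91.8% in the uninjected libraries.

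**Figure D2:**
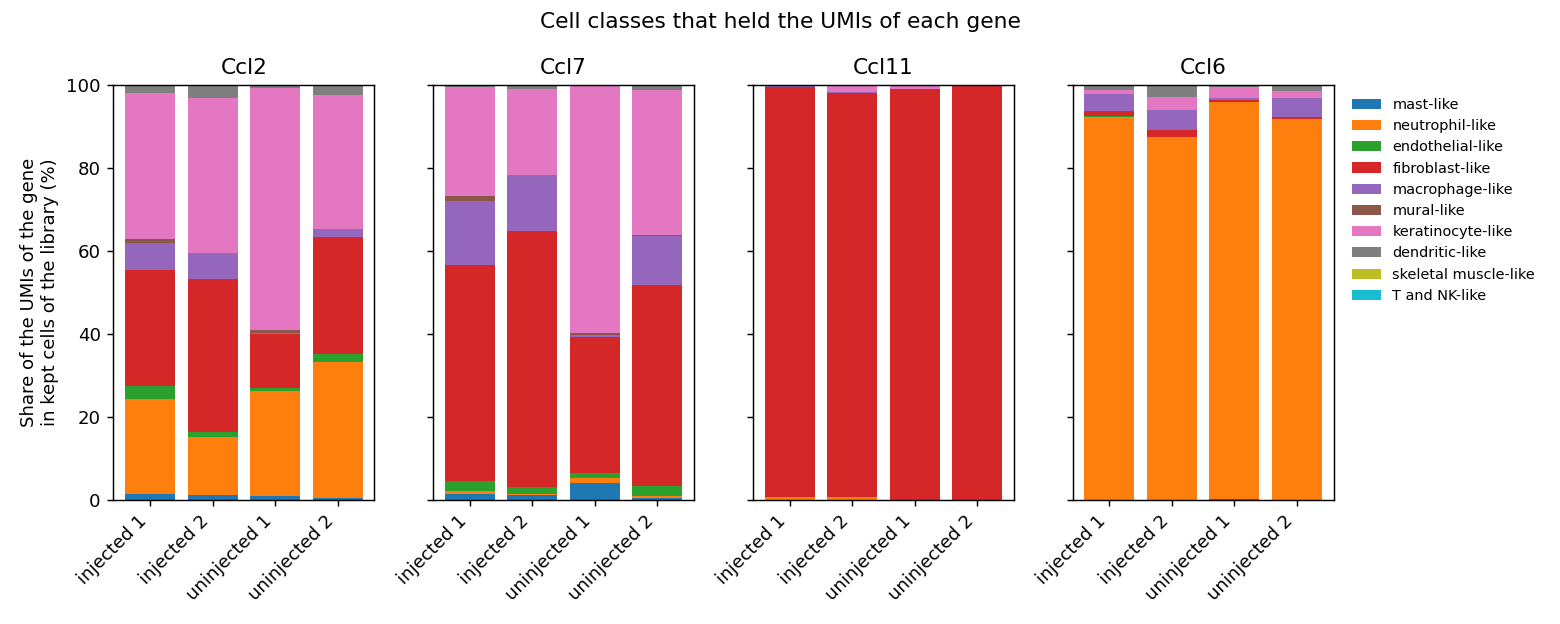
Cell classes that held the UMIs of each gene. Each bar is a library, with the injected libraries left of the uninjected ones, and the coloured parts are the percent of the gene's UMIs in kept cells that each class held. Ccl2 was divided among 3 large classes, while Ccl11 was fibroblast-like in every bar and Ccl6 neutrophil-like at 87.3% or more.

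The comparison of injected with uninjected wounds was made on UMIs summed per class and library, with the quasi-likelihood test of edgeR over all genes. From here on CPM are scaled by TMM, which equalises most genes between libraries. CPM of clusters, marker lists, untested classes and all kept cells are left unscaled. Of 18 pairs of gene and class tested, 14 were higher and 4 lower in the injected libraries, and 0 passed an adjusted p of 0.05. At an unadjusted p under 0.05 there were 6, and DESeq2 called 1, Ccl7 in fibroblast-like cells. Over all genes and the 6 classes, 6.93% of 63682 pairs had an unadjusted p under 0.05 and DESeq2 called 0.419%. In fibroblast-like cells these shares were 10% and 1.23% of 13307 genes, and in macrophage-like cells 5.23% and 0.0345% of 8707 genes. The 18 pairs repeat the same genes and libraries, and the genes were chosen with earlier results of these data known.

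In fibroblast-like cells, the matrix-producing cells of the dermis and of granulation tissue, Ccl11 differed most. Ccl11 stood at 61.7 and 59.8 CPM in the injected libraries, against 16.8 and 1.10 CPM in the uninjected libraries. The injected libraries were both above the uninjected ones, which were far apart from each other. The log2 change was 2.90 (SE 0.99), with an unadjusted p of 0.0230 and an adjusted p of 0.464 by edgeR. The value moved with the uninjected library kept, to 5.77 without uninjected 1 (adjusted p 0.0251) and 1.86 without uninjected 2 (adjusted p 0.00785). A library left out leaves 1 library in its group, which is then assumed to vary like the injected pair, and without uninjected 2 the test called 635 of 13639 genes in this class, against 4 with all libraries.

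The UMIs behind these Ccl11 values numbered 1178 and 763 in the injected libraries, against 102 and 20 in the uninjected libraries. The highest number in a cell was 104 and 147 in the injected libraries, against 24 and 6 in the uninjected libraries. With each cell thinned to 1000 UMIs, Ccl11 was seen in 4.89% (95% Wilson interval 3.62 to 6.56) and 5.19% (3.66 to 7.31) of injected cells. In uninjected cells it was seen in 1.81% (0.881 to 3.70) and 0.163% (0.0288 to 0.918). Unthinned, the shares were 14.6% and 14.5% of injected cells, against 5.36% and 2.23% of uninjected cells. In neutrophil-like cells, which should lack Ccl11, thinned shares were 0.0895% and 0.149% in the injected libraries, against 0 in both uninjected libraries, where the Wilson interval reaches 0.160% and 0.124% of thinned cells with a UMI. Intervals and limits cover counting error only. Ccl11 UMIs lay mostly in the larger of 2 fibroblast-like clusters, led by Col1a1, Col3a1, Dcn, Lum and Tnfaip6. There Ccl11 stood at 61.0 and 62.9 CPM, unscaled, in the injected libraries, against 16.1 and 1.24 CPM in the uninjected libraries. In the smaller cluster it stood at 0 and 2.19 CPM in the injected libraries, against 9.53 and 0 CPM in the uninjected libraries, from at most 5 UMIs.

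Ccl7 in fibroblast-like cells stood at 1057 and 1692 CPM in the injected libraries, against 672 and 515 CPM in the uninjected libraries. The groups did not overlap, and the log2 change was 1.21 (SE 0.36, unadjusted p 0.0138, adjusted p 0.444 by edgeR). DESeq2 gave 1.21 with an adjusted p of 0.0371. In thinned cells Ccl7 was seen in 41.4% (38.1 to 44.7) and 52.8% (48.7 to 56.8) of injected cells, against 29.3% (25.0 to 34.0) and 27.7% (24.3 to 31.4) of uninjected cells. Ccl2 stood at 6802 and 8482 CPM in the injected libraries, against 5400 and 5192 CPM in the uninjected libraries, a log2 change of 0.53 (SE 0.38, adjusted p 0.708 by edgeR). Ccl6 was near the floor in these cells, at 5.81 and 2.43 CPM in the injected libraries, against 3.46 and 1.48 CPM in the uninjected libraries, and the groups overlapped.

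In fibroblast-like cells 3 of the 4 genes had both injected libraries above both uninjected ones and 0 had both below. Over all 13307 genes tested in this class, 20.7% stood above and 20.1% below in this way, and 0.0301% passed the adjusted p. Macrophage markers moved with the group here, at 1412 and 1481 CPM (unscaled) in the injected libraries, against 632 and 650 CPM in uninjected ones. Detected were 12 and 10 of 12 in the injected libraries, against 9 and 8 of 12 in the uninjected libraries. C1qa was at 0 in injected 2 and uninjected 1, and C1qc was at 0 in both uninjected libraries. The same list came to 18963 and 17491 CPM in injected keratinocyte-like cells, against 8352 and 13002 CPM in uninjected ones. It includes Apoe, a leading gene of some keratinocyte-like clusters, so the sum is not particular to macrophages. Whether macrophages added to the fibroblast-like values was not tested.

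**Figure D3:**
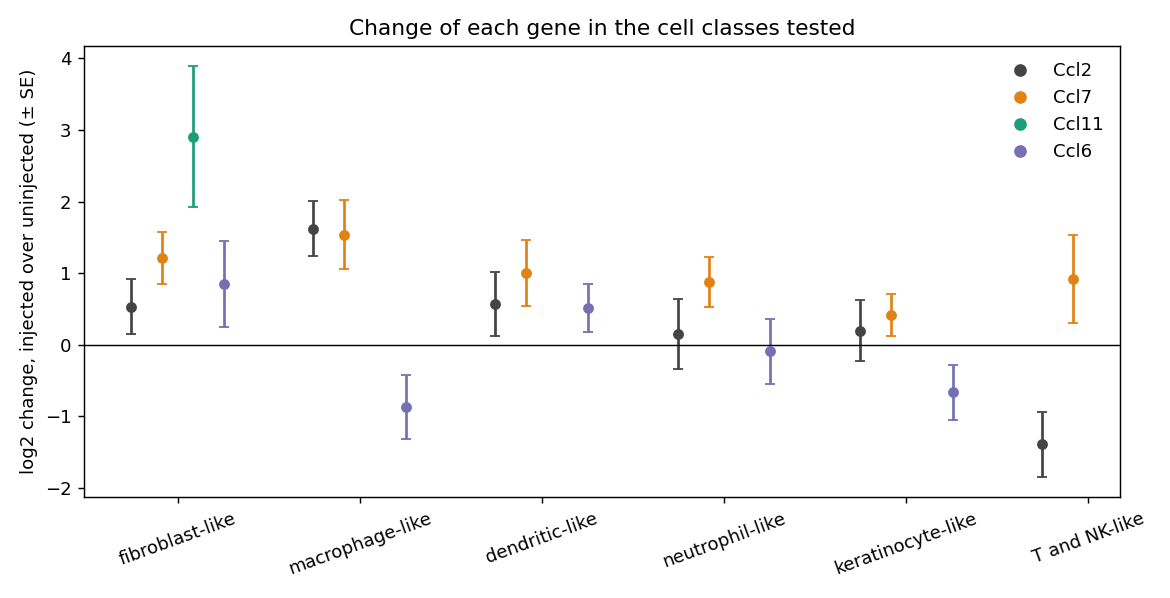
Change of each gene in the 6 tested classes. Points are log2 changes of injected over uninjected with their standard errors from edgeR, and genes are coloured. Ccl11 in fibroblast-like cells (2.90) and Ccl2 in macrophage-like cells (1.62) were the highest, and Ccl2 in T and NK-like cells (−1.39) was the lowest.

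Macrophage-like cells, a single cluster led by Spp1, Lyz2, Pf4, Fn1, Vcan and Cd68, had the largest Ccl2 difference of the 6 classes. Ccl2 stood at 9809 and 8274 CPM in the injected libraries, against 2900 and 2981 CPM in the uninjected libraries. The replicates lay close together and the groups did not overlap. The log2 change was 1.62 (SE 0.38, unadjusted p 0.00177, adjusted p 0.617 by edgeR, 0.0593 by DESeq2), and without uninjected 1, which had 61 such cells, it was 1.59. In thinned cells Ccl2 was seen in 73.2% (69.7 to 76.4) and 79.6% (75.2 to 83.4) of injected cells, against 60.7% (47.6 to 72.4) and 52.0% (47.1 to 56.8) of uninjected cells.

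Ccl7 in macrophage-like cells stood at 1997 and 2163 CPM in the injected libraries, against 375 and 1037 CPM in the uninjected libraries (log2 change 1.54, SE 0.48, adjusted p 0.903 by edgeR). The uninjected libraries differed from each other, and the log2 change was 0.99 without uninjected 1 (adjusted p 0.711) and 2.52 without uninjected 2 (adjusted p 0.0327, with 53 of 9237 genes called). Ccl6 went the other way, at 107 and 42.2 CPM in the injected libraries, against 122 and 148 CPM in the uninjected libraries (log2 change −0.87, SE 0.45, adjusted p 0.903 by edgeR). Of the 3 genes tested here, 2 were above and 1 was below in both injected libraries, where 21.4% and 17.5% of all 8707 genes stood above and below and 0.0115% passed the adjusted p. Fibroblast markers came to 228 and 193 CPM in these cells in the injected libraries (11 and 10 of 11 detected), against 125 and 163 CPM in the uninjected libraries (6 and 10 of 11 detected). Lum and Pdgfra were among those at 0 in uninjected 1, Pdgfra was at 0 in injected 2 and Postn in uninjected 2. Their part in the Ccl2 and Ccl7 values was not tested.

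Whether fibroblast-like and macrophage-like cells differed in their change was tested in a single edgeR fit of both classes, with the library as a block. The difference, fibroblast-like minus macrophage-like, was −1.29 for Ccl2 (SE 0.27, adjusted p 0.00179), and 0.563% of 12264 genes passed in this fit. That SE was below the SE of Ccl2 in either class alone, 0.38 in each. The fit took the spread almost wholly from all genes together, so its p-values do not measure the spread of a single gene between libraries. The median difference over all genes was −0.16 with TMM and −0.05 with the size factors of DESeq2. Relative to that median the Ccl2 difference was −1.13 and −1.11. The call was lost without injected 1 (−0.97), without uninjected 1 (−1.04), without uninjected 2 (−1.16), with cells gated one by one (−1.02) and without the library block (−1.28). For Ccl6 the difference was 1.71 (SE 0.44, adjusted p 0.0294), or 1.87 relative to the median. The call was lost when any of the 4 libraries was left out, with values between 0.95 and 2.46, and free RNA could make up 2.62% to 40.0% of the Ccl6 UMIs of fibroblast-like cells. That bound scales the empty-droplet profile of a library to the lowest marker of another class. For Ccl7 the difference was −0.65 (SE 0.31, adjusted p 0.558), and without uninjected 1 it was 0.38.

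Neutrophil-like cells, the short-lived granulocytes that dominate early wounds, carried Ccl2 as 1.39% to 2.15% of their UMIs. Ccl2 stood at 19634 and 18993 CPM in the injected libraries, against 12160 and 22652 CPM in the uninjected libraries. The uninjected values lay on both sides of the injected ones (log2 change 0.15, SE 0.49, adjusted p 0.951 by edgeR), and without uninjected 1 the change was −0.27. Thinned to 1000 UMIs, 73.0% (71.5 to 74.5) and 68.1% (65.5 to 70.5) of injected cells held Ccl2, against 79.7% (78.0 to 81.3) and 71.7% (70.1 to 73.3) of uninjected cells. That left out 783 and 260 injected and 1869 and 388 uninjected cells as too shallow.

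T and NK-like cells, which are not known as a main source of Ccl2, are set beside these as a comparison but are not a matched background. By the empty-droplet bound, free RNA could make up to 1.71% and 1.48% of their UMIs in injected, and 5.81% and 2.18% in uninjected libraries. In neutrophil-like cells the bound was 4.63% and 3.74% in injected, and 14.9% and 4.49% in uninjected libraries. In T and NK-like cells, 12.3% (9.42 to 15.8) and 6.79% (3.83 to 11.7) of injected thinned cells held Ccl2, against 32.6% (25.3 to 40.9) and 9.92% (7.22 to 13.5) of uninjected thinned cells. Median depth was 1361 and 1377 UMIs in injected neutrophil-like cells, against 1041 and 1430 in uninjected ones, and 4318 and 4242 in injected T and NK-like cells, against 2788 and 4186 in uninjected ones. By the empty-droplet bound, at most 1.37% and 0.482% of Ccl2 UMIs in injected neutrophil-like cells could be free RNA, against 5.68% and 0.750% in uninjected ones.

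Ccl6 in neutrophil-like cells stood at 1364 and 756 CPM in the injected libraries, against 928 and 1332 CPM in the uninjected libraries, and the groups overlapped (log2 change −0.09, SE 0.45, adjusted p 0.974 by edgeR). The sign turned without injected 2 (0.30) and without uninjected 2 (0.21). Ccl7 stood at 43.4 and 44.8 CPM in the injected libraries, against 27.8 and 20.1 CPM in the uninjected libraries (log2 change 0.88, SE 0.35, adjusted p 0.546 by edgeR). Up to 52.8% and 22.5% of these Ccl7 UMIs in the injected libraries could be free RNA, against 78.4% and 42.7% in the uninjected libraries, and its part in the difference was not tested. Of the 3 genes tested, 1 was above and 0 were below in both injected libraries, where 21.3% and 20.4% of all 8358 genes were. In this class 0 genes passed the adjusted p by edgeR, 752 (9%) had an unadjusted p under 0.05 and DESeq2 called 33 (0.395%).

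The neutrophil-like clusters differed in Ccl2 and Ccl6. In the cluster led by Ccl3, Il1b, G0s2 and Acod1, Ccl2 stood at 24221 and 27060 CPM, unscaled, in the injected libraries, against 21699 and 34048 CPM in the uninjected libraries. In the cluster with Gpnmb and Fcer1g among its leading genes, Ccl2 stood at 9290 and 4805 CPM in the injected libraries, against 7656 and 13826 CPM in the uninjected libraries. Ccl6 there was 219 and 142 CPM in the injected libraries, against 484 and 426 CPM in the uninjected libraries. The libraries filled the neutrophil-like clusters differently. A pair of these clusters held 144 and 110 cells of injected 1 and 51 and 86 of injected 2, against 2407 and 1214 of uninjected 1 and 435 and 97 of uninjected 2.

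Keratinocyte-like cells held the most Ccl2 UMIs of any class over both groups, 272124 in the injected and 256302 in the uninjected libraries. Ccl2 stood at 3830 and 2432 CPM in the injected libraries, against 3494 and 1979 CPM in the uninjected libraries (log2 change 0.19, SE 0.43, adjusted p 0.932 by edgeR). The groups overlapped, as they did for Ccl7, at 238 and 161 CPM in the injected libraries and 175 and 124 CPM in the uninjected libraries. Unscaled, Ccl7 did not overlap, at 254 and 168 CPM in the injected libraries, against 155 and 126 CPM in the uninjected libraries. Ccl6 was at 2.00 and 1.31 CPM in the injected libraries, against 3.22 and 2.06 CPM in the uninjected libraries, with up to 73.4% possibly free RNA, and its groups overlapped unscaled. Of these 3 genes 0 were above and 1 was below in both injected libraries, where 18.7% and 17.7% of all 14620 genes were. By edgeR 0 genes passed the adjusted p and 654 (4.47%) had an unadjusted p under 0.05, and DESeq2 called 35 (0.239%).

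Among the keratinocyte-like clusters, Ccl2 differed more than between injected and uninjected libraries. It was highest in the cluster with Itga2, Tnc and Mmp13 among its leading genes, which encode an integrin subunit, a matrix protein and a collagenase. There it stood at 8265 and 9800 CPM, unscaled, in the injected libraries, against 10245 and 6055 CPM in the uninjected libraries. In the cluster led by Krtdap, Sprr1a, Krt1 and Krt10, genes of differentiated upper layers, it stood at 285 and 237 CPM in the injected libraries, against 304 and 180 CPM in the uninjected libraries. Ccl7 in the first of these clusters stood at 490 and 563 CPM in the injected libraries, against 504 and 293 CPM in the uninjected libraries. In the differentiated cluster Ccl7 stood at 12.5 and 27.1 CPM in the injected libraries, against 14.3 and 15.1 CPM in the uninjected libraries. Every library showed the same order of these clusters for both genes.

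**Figure D4:**
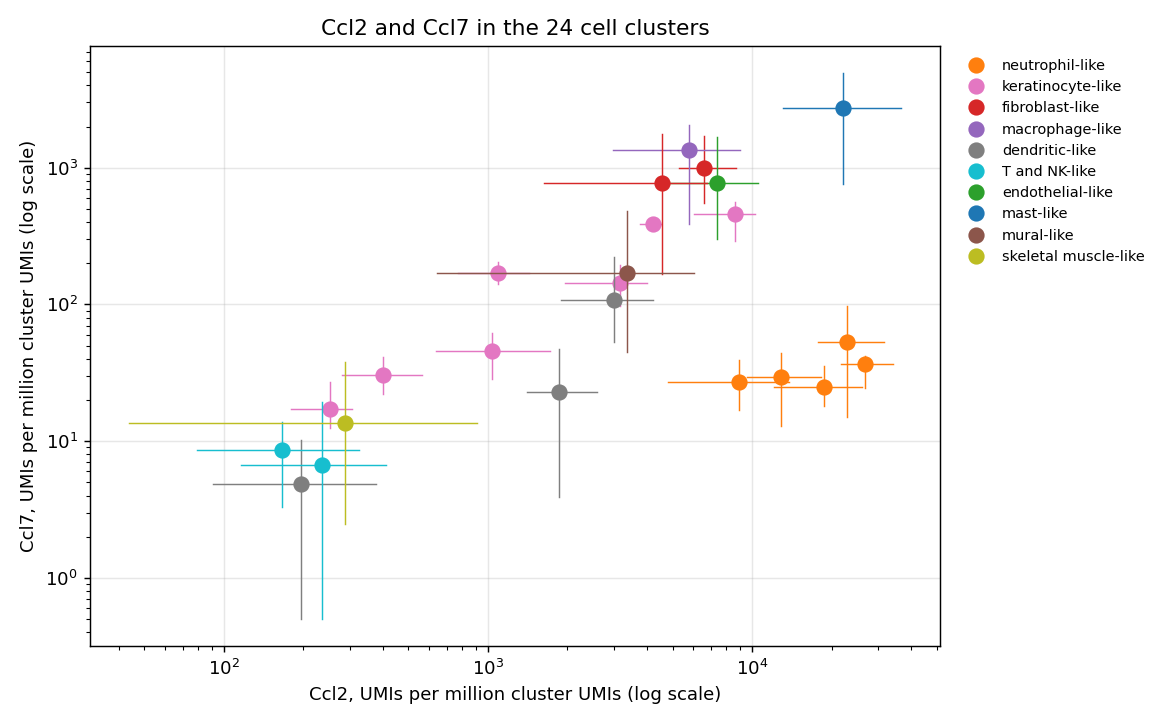
Ccl2 and Ccl7 in 24 cell clusters. Points are means over 4 libraries of CPM of the cluster, both axes are log scales, lines span the lowest to the highest library, a vertical line that ends below 1 includes a library with 0 Ccl7 UMIs, and colour is the class. The neutrophil-like clusters lie below the band of the other clusters, with high Ccl2 and little Ccl7.

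Dendritic-like cells, which present antigen, had Ccl2 at 1719 and 2807 CPM in the injected libraries, against 1970 and 1093 CPM in the uninjected libraries (log2 change 0.56, SE 0.44, adjusted p 0.942 by edgeR). Ccl7 stood at 38.8 and 102 CPM in the injected libraries, against 38.1 and 32.8 CPM in the uninjected libraries (log2 change 1.003, SE 0.46, adjusted p 0.934 by edgeR). Ccl6 stood at 16.3 and 16.7 CPM in the injected libraries, against 11.2 and 11.8 CPM in the uninjected libraries (log2 change 0.51, adjusted p 0.942 by edgeR). Of these 3 genes, 2 were above and 0 below in both injected libraries, where 19.5% and 16.8% of all 10253 genes were. Unscaled, all 3 were above, with Ccl2 at 1845 and 2804 CPM in the injected libraries, against 1760 and 1122 CPM in the uninjected libraries. By edgeR 0 genes passed the adjusted p and 515 (5.02%) had an unadjusted p under 0.05, and DESeq2 called 21 (0.205%). Ccl2 was higher in dendritic-like clusters led by major histocompatibility genes. In the cluster led by Cd74 and RT1-Da with Cd207 it stood at 3239 and 4224 CPM, unscaled, in the injected libraries, against 2690 and 1885 CPM in the uninjected libraries. In the cluster led by Blnk, Ifi30 and Irf8 it was 378 and 90.6 CPM in the injected libraries, against 210 and 103 CPM in the uninjected libraries.

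T and NK-like cells had low Ccl2, at 139 and 93.8 CPM in the injected libraries, against 452 and 178 CPM in the uninjected libraries (log2 change −1.39, SE 0.45, adjusted p 0.586 by edgeR). Both injected libraries were below the uninjected ones, and without uninjected 1 the change was −0.59. Without uninjected 2 it was −1.91, with an adjusted p of 0.00179 in a fit that called 537 of 8211 genes, and with no filter on low counts it was −1.31, with an adjusted p of 0.00618. With cells gated one by one it was 0.12, from as few as 15 cells in a library. Up to 63.4% and 34.3% of Ccl2 UMIs in the injected libraries could be free RNA, against 83.3% and 43.0% in the uninjected libraries. Neutrophil markers stood at 110 and 94.1 CPM in these cells in the injected libraries (9 and 5 of 12 detected), against 533 and 489 CPM in the uninjected libraries (9 and 10 of 12 detected). Cxcr2 was at 0 in both injected libraries, Camp and Ltf in those and in uninjected 1, and Csf3r in injected 2 and uninjected 2. Their part in the Ccl2 values was not tested. Of the 2 genes tested, 0 were above and 1 was below in both injected libraries, where 22.7% and 21.9% of all 8437 genes were. Unscaled, Ccl7 was also above, at 10.3 and 8.13 CPM in the injected libraries, against 6.64 and 3.63 CPM in the uninjected libraries. These values rest on 29 UMIs in the injected and 9 in the uninjected libraries. Free RNA could make up to 77.1% and 47.1% of them in the injected libraries, and up to 100% in both uninjected ones. By edgeR 0 genes passed the adjusted p and 702 (8.32%) had an unadjusted p under 0.05, and DESeq2 called 11 (0.13%).

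The classes with too few cells for a test were measured but not compared. In mast-like cells, 34 to 50 per library, Ccl2 stood at 36731 and 16022 CPM, unscaled, in the injected libraries, against 22714 and 13145 CPM in the uninjected libraries. Ccl7 there stood at 3225 and 2005 CPM in the injected libraries, against 4910 and 764 CPM in the uninjected libraries. In endothelial-like cells, 33 to 141 per library, Ccl2 stood at 4685 and 9392 CPM in the injected libraries, against 4772 and 10520 CPM in the uninjected libraries. The groups overlapped in both classes. In mural-like cells, 6 to 73 per library, the Ccl2 groups did not overlap. They stood at 6028 and 3428 CPM in the injected libraries, against 3379 and 641 CPM in the uninjected libraries. Ccl7 in skeletal muscle-like cells was also above, from 23 UMIs in the injected and 5 in the uninjected libraries. Ccl6 was below in both of these classes, from at most 9 UMIs in a group. The share of all genes that stood apart was not counted in these classes.

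Summed over all kept cells of a library, Ccl2, Ccl7 and Ccl11 were higher in both injected libraries. The share of all genes that stood apart in this way was not counted for these sums. Ccl7 came to 479 and 536 CPM, unscaled, in the injected libraries, against 200.02 and 220.2 CPM in the uninjected libraries, a ratio of means of 2.42. Ccl11 came to 14.8 and 12.0 CPM in the injected libraries, against 1.65 and 0.227 CPM in the uninjected libraries, a ratio of 14.2. Ccl2 came to 5745 and 4487 CPM in the injected libraries, against 4064 and 3812 CPM in the uninjected libraries, a ratio of 1.30. The exact two-sided permutation test gave p = 0.333 for each, the smallest that 2 libraries against 2 allow. Ccl6 came to 99.3 and 28.7 CPM in the injected libraries, against 81.6 and 79.8 CPM in the uninjected libraries (exact permutation p = 1). More cells of a class and more RNA per cell both enter these sums, and fibroblast markers over all kept cells were 13674 and 12265 CPM in the injected libraries, against 4872 and 8839 CPM in the uninjected libraries.

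Ccl2 and Ccl7 are neighbours in the genome, yet their ratio differed by class. The ratio is of raw UMIs, not corrected for transcript length, and is compared between classes only. In fibroblast-like cells there were 6.44 and 5.01 Ccl2 UMIs per Ccl7 UMI in the injected libraries, against 8.03 and 10.1 in the uninjected libraries. In macrophage-like cells there were 4.91 and 3.82 in the injected libraries, against 7.73 and 2.88 in the uninjected libraries. In neutrophil-like cells there were 453 and 424 in the injected libraries, against 437 and 1129 in the uninjected libraries. The empty droplets held 11.7 and 9.07 in the injected libraries, against 31.7 and 19.8 in the uninjected libraries. Every library had a neutrophil-like ratio above its empty-droplet ratio and a fibroblast-like one below it.

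The same held cell by cell after thinning. Among fibroblast-like cells with Ccl2, 48.4% and 61.3% also held Ccl7 in the injected libraries, against 37.0% and 34.2% in the uninjected libraries. Among those without Ccl2, 10.3% in each injected library held Ccl7, against 8.57% and 5.71% in the uninjected libraries. In neutrophil-like cells with Ccl2, Ccl7 was seen in 2.17% and 3.50% in the injected libraries, against 2.67% and 1.67% in the uninjected libraries. Without Ccl2 it was seen in 2.43% and 3.03% in the injected libraries, against 1.44% and 1.03% in the uninjected libraries.

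Across 30 sums of class and library with at least 50 cells, from 10 classes, the genes most like each chemokine among 11174 genes were ranked by Pearson correlation of log2(CPM + 1). For Ccl2 they were Ier3 (0.891), Ptgs2 (0.888), which encodes the inducible cyclooxygenase, and Acsl4 (0.880). For Ccl7 they were Vps28 (0.883), Snx24 (0.881) and Anxa5 (0.857). For Ccl11 they were Abca8a (0.904), Cxcl13 (0.897), a chemokine for B cells, and Lnx1 (0.888). For Ccl6 they were Clec4e (0.983) and Clec4d (0.982), lectin receptors of myeloid cells, and Lilrb4 (0.980). Ccl2 and Ccl7 correlated at 0.685. The sums share libraries, depth and class markers, so these are descriptions of where the genes are expressed.

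Other CC chemokines and their receptors were read from a list of 32 genes, 31 with a row. In fibroblast-like cells 11 were tested, 6 higher and 5 lower, with a median log2 change of 0.64 against −0.00 for all genes. In macrophage-like cells 8 were tested, 7 higher, with a median of 0.57 against 0.03. The medians were 0.30 in dendritic-like, 0.05 in neutrophil-like, −0.14 in keratinocyte-like and −0.44 in T and NK-like cells. Over all classes 0 of 65 pairs of gene and class passed by edgeR, 15 had an unadjusted p under 0.05, and DESeq2 called 3, Ccl20, Ccl3 and Ccl4 in fibroblast-like cells. Over all genes, 6.93% of pairs had such a p, and DESeq2 called 1.23% in fibroblast-like cells. Pairs of this list and of the lists below repeat genes and libraries over classes, and the lists were chosen with earlier results known. These counts therefore do not test the lists.

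Ccl20, the ligand of Ccr6, stood at 171 and 260.1 CPM in injected fibroblast-like cells, against 65.4 and 15.4 CPM in uninjected ones (log2 change 2.44, adjusted p 0.401 by edgeR). Ccl4, a chemokine for monocytes and T cells, stood at 4.45 and 4.78 CPM there in the injected libraries, against 0.329 and 1.10 CPM in the uninjected libraries. Ccl3, a chemokine of activated macrophages and neutrophils, stood at 6683 and 2902 CPM in injected macrophage-like cells, against 1677 and 2121 CPM in uninjected ones (log2 change 1.33, adjusted p 0.903 by edgeR). DESeq2 called Ccl3 in fibroblast-like cells but 0 genes of this list in macrophage-like cells. Ccl24, which like Ccl11 is an eotaxin and acts on Ccr3, stood at 71.9 and 13.3 CPM in injected macrophage-like cells, against 53.6 and 174 CPM in uninjected ones, and the groups overlapped.

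Of 27 cytokines, receptors and transcription factors upstream of CC chemokines, 26 had a row. In fibroblast-like cells 22 were tested, 20 higher and 2 lower, with a median log2 change of 0.25. The medians were 0.49 in neutrophil-like, 0.26 in dendritic-like, 0.17 in macrophage-like, 0.12 in keratinocyte-like and −0.12 in T and NK-like cells. Over all classes 0 of 122 pairs passed by edgeR, 15 had an unadjusted p under 0.05, and DESeq2 called 4, Il1a, Il1b and Il6 in fibroblast-like cells and Il1a in dendritic-like cells. The shares over all genes were 6.93% for the unadjusted p, and by DESeq2 1.23% in fibroblast-like and 0.205% in dendritic-like cells. Il1b, like Ccl3 above, is a leading gene of neutrophil-like clusters. The part of neutrophils or free RNA in the fibroblast-like values of both genes was not tested. Il6, which encodes interleukin 6, stood at 2752 and 1786 CPM in injected fibroblast-like cells, against 973 and 785 CPM in uninjected ones (log2 change 1.37, adjusted p 0.403 by edgeR). Il1b, which encodes interleukin 1 beta, stood at 5529 and 2407 CPM in injected macrophage-like cells, against 1837 and 1238 CPM in uninjected ones (log2 change 1.37, adjusted p 0.903 by edgeR). In macrophage-like cells DESeq2 called 0 genes of this list. Il1a stood at 63.0 and 99.4 CPM in injected dendritic-like cells, against 23.5 and 19.6 CPM in uninjected ones (log2 change 1.94, adjusted p 0.416 by edgeR). In neutrophil-like cells, Nfkb2, a subunit of NF-kB, stood at 286 and 317 CPM in the injected libraries, against 148 and 109.6 CPM in the uninjected libraries (log2 change 1.23, adjusted p 0.546 by edgeR).

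The cells that these chemokines attract were read from a list of 20 monocyte and eosinophil genes, all with a row. Over all classes 0 of 60 pairs passed by edgeR, 10 had an unadjusted p under 0.05, and DESeq2 called 2, Cd14 in fibroblast-like and Siglec5 in neutrophil-like cells. Against that stand 6.93% of all pairs for the unadjusted p, and by DESeq2 1.23% of genes in fibroblast-like and 0.395% in neutrophil-like cells. Medians of the list lay between −0.26 in T and NK-like and 0.27 in fibroblast-like cells. Cd14, the lipopolysaccharide co-receptor of monocytes, stood at 2443 and 1687 CPM in injected macrophage-like cells, against 424 and 779 CPM in uninjected ones (log2 change 1.76, adjusted p 0.673 by edgeR). In neutrophil-like cells Cd14 stood at 37.5 and 28.6 CPM in the injected libraries, against 8.57 and 8.89 CPM in the uninjected libraries (log2 change 1.92, adjusted p 0.490 by edgeR). DESeq2 called Cd14 in neither macrophage-like nor neutrophil-like cells. Siglec5, a sialic acid-binding receptor, stood at 8.12 and 4.62 CPM in injected neutrophil-like cells, against 27.8 and 41.8 CPM in uninjected ones (log2 change −2.39, adjusted p 0.490 by edgeR). Neither group of libraries overlapped the other for Cd14 and Siglec5 in these classes. Of all genes, 21.4% stood above in this way in macrophage-like cells. In neutrophil-like cells 21.3% stood above and 20.4% below. Fn1, which encodes fibronectin, stood at 1207 and 726 CPM in injected macrophage-like cells, against 1837 and 2906 CPM in uninjected ones (log2 change −1.30, adjusted p 0.903 by edgeR). No cluster was named from eosinophil markers. The 6 marker genes had 127 and 85 UMIs over all kept cells in the injected libraries, against 94 and 126 in the uninjected libraries, with Epx at 0 in injected 2 and Prg2 at 0 in injected 2 and uninjected 1, both genes of granule proteins.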

How the data were processed

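UMI counts of skin cells from 2 injected and 2 uninjected wounds were analysed. The deposited files hold raw UMI counts per gene and barcode, empty droplets included, made by the authors with Cell Ranger 7.2.0 per the file headers, while version 5.0.1 stands in the submitters' processing notes. A genome build is not given in the sources used here, so coordinates shown are from RefSeq GRCr8.

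Cells were called per library, as barcodes with over 10% of the UMIs at percentile 99 of the 3000 deepest, or with 500 UMIs or more and a profile unlike barcodes ranked 45000 to 90000 (false discovery rate 0.01). Cells needed 250 genes and at most 20% mitochondrial UMIs, and the top Scrublet scores (0.8% per 1000 cells) were removed as doublets. The 33663 cells gave 24 Leiden clusters (scanpy 1.11.5, 2000 variable genes without the chemokines, 30 components, resolution 1), named from marker lists. Gating each of 28745 cells by its own markers gave the same class for 27304.

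Sums per class and library were tested in edgeR 4.0.16 by quasi-likelihood (TMM, filterByExpr, no covariates, Benjamini-Hochberg threshold 0.05) in R 4.3.3, with DESeq2 1.42.0 beside it. Counts were simulated with 4-fold or 8-fold changes and an equal spread for every gene. On these the test recovered 173 of 181 changed genes in fibroblast-like and 143 of 167 in macrophage-like cells. For the difference of response, with 4-fold changes only, it recovered 95 of 198. Most chemokine changes reported here were smaller, so these counts do not give the share recovered for such changes. False calls numbered 5, 8 and 1, in the same order. The share it would recover in the wound libraries themselves was not tested. Free RNA was bounded by the profile of empty droplets, scaled to the lowest marker of another class. Genes of the 3 lists were named by the 3 largest changes per class with 20 or more UMIs. A selection of those is printed. The chemokines and lists were chosen with earlier results of these data known. Same-numbered replicates were not paired.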

Additional observations from a re-analysis of the deposited data

Results flagged for a closer look

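Ccl2 and Ccl6 are listed here because their fitted change, or the order of their libraries, differed between cell classes. For Ccl2 the difference of log2 change, fibroblast-like minus macrophage-like, was −1.29, and for Ccl6 it was 1.71, both past the adjusted threshold in a single edgeR fit of both classes. That fit took its spread almost wholly from all genes together, and 0.563% of 12264 genes passed in it. The Ccl6 call was lost without any of the 4 libraries, and the Ccl2 call without 3 of the 4, with gated cells and without the library block. The Ccl2 change was 0.53 in fibroblast-like and 1.62 in macrophage-like cells, with both injected libraries above both uninjected ones, and −1.39 in T and NK-like cells, with both below. The Ccl6 change was 0.51 in dendritic-like cells, with both injected libraries above, and −0.87 in macrophage-like and −0.67 in keratinocyte-like cells, with both below, though in keratinocyte-like cells the groups overlapped unscaled. Over the 6 tested classes, 18.7% to 22.7% of all genes stood above and 16.8% to 21.9% below in this way. Free RNA could make up to 40.0% of Ccl6 UMIs in fibroblast-like cells and up to 73.4% in keratinocyte-like cells. The opposite directions of Ccl2 in T and NK-like cells and of Ccl6 in dendritic-like cells were not tested as differences.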

How the results depend on the processing

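Of 230 log2 changes of single chemokines under other settings, 217 kept direction and side of the threshold, 7 passed it newly and 6 turned sign. The count of called chemokines went to 1 where the reported fits had 0. This was so in fibroblast-like cells with no filter on low counts and by DESeq2, in neutrophil-like cells with no filter, where Ccl11 had 12 UMIs in the injected and 0 in the uninjected libraries, and in T and NK-like cells with no filter. Leaving out a library gave counts between 0 and 1 in fibroblast-like, macrophage-like and T and NK-like cells, and 0 in the others. The Ccl2 difference of response ranged from −1.63 to −0.97 when a library was left out, and was −1.02 with gated cells and −1.28 with no library block, where its call was lost.

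Signs turned for Ccl2 in neutrophil-like cells without uninjected 1 (−0.27, range over left-out libraries −0.27 to 0.68), in keratinocyte-like cells without injected 1 (−0.16) and without uninjected 2 (−0.15, range −0.16 to 0.67), and in T and NK-like cells when gated (0.12). They turned for Ccl6 in neutrophil-like cells without injected 2 (0.30) and without uninjected 2 (0.21, range −0.60 to 0.30). Without uninjected 1 the difference of response turned for Ccl7 (0.38, range −1.49 to 0.38). For Ccl11 it was −1.09 (SE 3.14) with all libraries and 0.036 without uninjected 1 (range −3.19 to 0.036). Macrophage-like cells held 3 Ccl11 UMIs in the injected and 0 in the uninjected libraries, so its turn of sign carries no information. The cause was not tested.

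With the replicate block, 0 chemokines were called in each of the 6 classes. Called genes came to 0 in fibroblast-like and 0 in macrophage-like cells with the block, against 4 and 1 without it, and to 2 in T and NK-like cells, against 0. Deviations of same-numbered libraries correlated between −0.168 and −0.005. With the numbers crossed, a choice made after the data were seen, 0 chemokines were called, and 22 genes in fibroblast-like and 13 in T and NK-like cells. Counts of called genes over all genes moved more. With no filter they were 321 in fibroblast-like, 70 in macrophage-like, 398 in neutrophil-like, 250 in T and NK-like and 260 in dendritic-like cells, and DESeq2 called 164 in fibroblast-like and 3 in macrophage-like cells. Without uninjected 2 they lay between 53 (macrophage-like) and 809 (neutrophil-like). For the difference of response 69 genes passed, 29 with gated cells, 33 with doublets kept, 0 with no library block and 1 to 28 without a library. Gated fits rest on as few as 29 macrophage-like and 15 T and NK-like cells.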
